A study of Mus musculus with 8 samples.

Results

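The translation initiation factors outside the eIF4 family were followed in ribosome footprints and total RNA of mouse neurons. The genes were chosen by name, as those whose GENCODE M21 symbol begins with Eif1, Eif2, Eif3, Eif5 or Eif6. Of 49 such symbols, 38 were measured, among 18301 genes in all, and all 38 passed the filter on low counts that left 12898 genes tested. The other 11, of which 9 are annotated as pseudogenes, are not analysed here. The cultures were neurons labelled cortical and glutamatergic, kept to day 8 in vitro after differentiation from embryonic stem cells of the CGR8 line, and all received cycloheximide at 100 µg/ml for 5 minutes, which halts elongating ribosomes. The DKO group carried a double knockout of Eif4g1 and Eif4g3, the genes for scaffold proteins that recruit the small ribosomal subunit to capped mRNA, and the wildtype (WT) group carried neither. Each genotype had 2 footprint libraries and 2 total RNA libraries, so that there were 4 groups of 2 from 4 cultures. The labels do not say how the knockout was made or whether a culture is 1 clone.

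Initiation in animal cells begins with the small ribosomal subunit, which binds eIF1, eIF1A, eIF3 and eIF5 together with a ternary complex of eIF2, GTP and initiator tRNA. The complex is brought to capped mRNA through eIF4F, scans to a start codon, and then joins the large subunit with the help of eIF5B. eIF2 leaves with GDP bound and is recharged by eIF2B, its exchange factor. Phosphorylation of the alpha subunit of eIF2 by any of 4 kinases inhibits eIF2B, which lowers general initiation and favours some mRNAs with upstream reading frames, in a response that also operates in synaptic plasticity. eIF6 holds the large subunit apart from the small one, and eIF5A acts mainly in elongation and termination in spite of its name.

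The footprint libraries held 10490535 and 18381021 counts in DKO and 19753419 and 14450410 in WT, and the RNA libraries held 44786643 and 15862034 in DKO and 14762047 and 22352224 in WT. The whole-gene count of the targeted Eif4g1 was 153.8 and 287.5 CPM, the count scaled to the TMM-adjusted library size, in DKO footprints, against 299.8 and 263.0 CPM in WT footprints, and it was 125.4 and 304.9 CPM in DKO RNA, against 288.3 and 279.9 CPM in WT RNA. Only the libraries of DKO replicate 1 were low. The targeted Eif4g3 was not called lower in DKO, with 164.5 and 172.5 CPM in DKO footprints, against 168.6 and 153.3 CPM in WT footprints, and 102.9 and 138.5 CPM in DKO RNA, against 120.1 and 128.3 CPM in WT RNA. Its log2 fold changes of DKO over WT were 0.07 ± 0.13 in footprints (SE, adjusted p = 0.954) and -0.05 ± 0.13 in RNA (adjusted p = 0.986, edgeR quasi-likelihood test for both), with overlapping groups. A whole-gene count does not show which exons are missing, so it cannot serve as a check of the genotypes, and DKO stands for the libraries so labelled. WT replicate 2 stood apart from the other cultures on the first principal component of each assay, at 34.7 in footprints and 29.3 in RNA, where the others lay below 0. Its culture code in the labels also has another form than the other codes. Its summed progenitor markers were 994.8 CPM in footprints, against 593.0 to 607.5 CPM in the other 3 footprint libraries. The neuron markers summed to at least 4600.6 CPM in each footprint library. The 4 glutamatergic markers summed to 381 to 598.1 CPM in footprints and to 470.4 to 626.9 CPM in RNA. Among them, Slc17a7 was under 1 CPM in every library. Slc17a6 was 234.2 and 193.6 CPM in DKO footprints, against 165.8 and 74.3 CPM in WT footprints. In RNA Slc17a6 was 223.95 and 180.4 CPM in DKO, against 166.3 and 78.0 CPM in WT. The rest of the sum came from Grin1 and Gria2. The GABAergic markers, 5 of 5 measured, summed to 531.4 to 605.5 CPM in footprints and to 215.5 to 271.5 CPM in RNA. Among these, Dlx2 was under 1 CPM in every library. The cortical markers summed to 11.6 to 19.6 CPM, with Emx1 and Fezf2 among those under 1 CPM in every library. The 2 libraries of a group carry different culture codes, but nothing in the labels says whether they come from separate differentiations. A p-value therefore reflects only how far these particular cultures vary.

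The bases around a start codon matter for these genes because eIF1 and eIF5 set how strictly a scanning ribosome demands a favourable context, and a poor context on the eIF1 mRNA is known to let eIF1 limit its own synthesis. A context was classed as strong where the base at position -3 is A or G and the base at position 4 is G, counted from the A of the start codon as 1, and as weak where neither holds. Only Eif1, Eif1b and Eif3b had a weak context among the 38 members. The sequences below come from the coding isoform of each gene with the most RNA, in GENCODE M21 (GRCm38), 5′ to 3′ on the transcript strand, with the base at -3, the start codon and the base at 4 in capitals. They set the 3 weak contexts beside those of the eIF5A paralogs, Eif5 and Eif2b5, genes whose values are described further on.
Eif1: gaatcgtatCgtATGTcc
Eif1b: cactagtgtCgcATGTcc
Eif3b: cagcgcgggCccATGCag
Eif5a: aagcctcttAaaATGGca
Eif5a2: ccccagtccAccATGGca
Eif5: taataagccAaaATGTct
Eif2b5: ctgcgaagcAagATGGca

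The start codon of Eif1 begins at position 100320130 of chromosome 11, that of Eif1b at 120492811 of chromosome 9 and that of Eif3b at 140419361 of chromosome 5. The others begin at 69919315 of chromosome 11 for Eif5a, 28782052 of chromosome 3 for Eif5a2, 111539616 of chromosome 12 for Eif5 and 20498914 of chromosome 16 for Eif2b5. The share of weak contexts was 7.9% in the members (3 of 38) and 7.0% over all 12544 tested genes with an annotated ATG start. The coding isoform of Eif5 with the most RNA, Eif5-202, has a leader of 626 nt with 5 upstream ATGs. An upstream ATG lies in the leader of 10 of 38 members (26.3%) and in 50.8% of tested genes, and in the leader of 0 of 13 eIF3 genes, whose leaders have a median length of 81 nt against 169 nt over all tested genes. These are descriptions of annotated sequence and say nothing of which start codons were used.

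Initiation factors were among the more heavily translated genes of these neurons, with levels that spread widely between roles. Levels between genes are compared per length. Footprint density is the count per kb of the longest coding sequence scaled to the library total, and RNA density is the count per kb of transcript, summed over isoforms and scaled likewise. Eif5a had the highest footprint density, 2162 and 2067 in DKO and 2067 and 1998 in WT. Eif1 followed with 1582 and 1913 in DKO and 1501 and 1563 in WT, and Eif1ax with 1079 and 923.3 in DKO and 1084 and 815.9 in WT. With all isoforms counted, these 3 did not overlap with one another or with the next gene, Eif3k. With protein-coding isoforms alone Eif1 and Eif1ax overlapped, at 755.8 to 1020 and 756.1 to 1026, so their order is not resolved. At the other end stood Eif2ak4, with 5.08 and 4.80 in DKO and 5.03 and 5.13 in WT, a mean density 414-fold below that of Eif5a. With protein-coding isoforms alone Eif5b was lower still, at 4.09 on average. Along the whole order, 24 of 37 neighbouring pairs overlapped in their library values, so that most steps in the order are not resolved. The median footprint density was 121 in the members and 19.4 over all tested genes, and the median RNA density was 58.1 in the members and 13.9 over all.

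**Figure D1:**
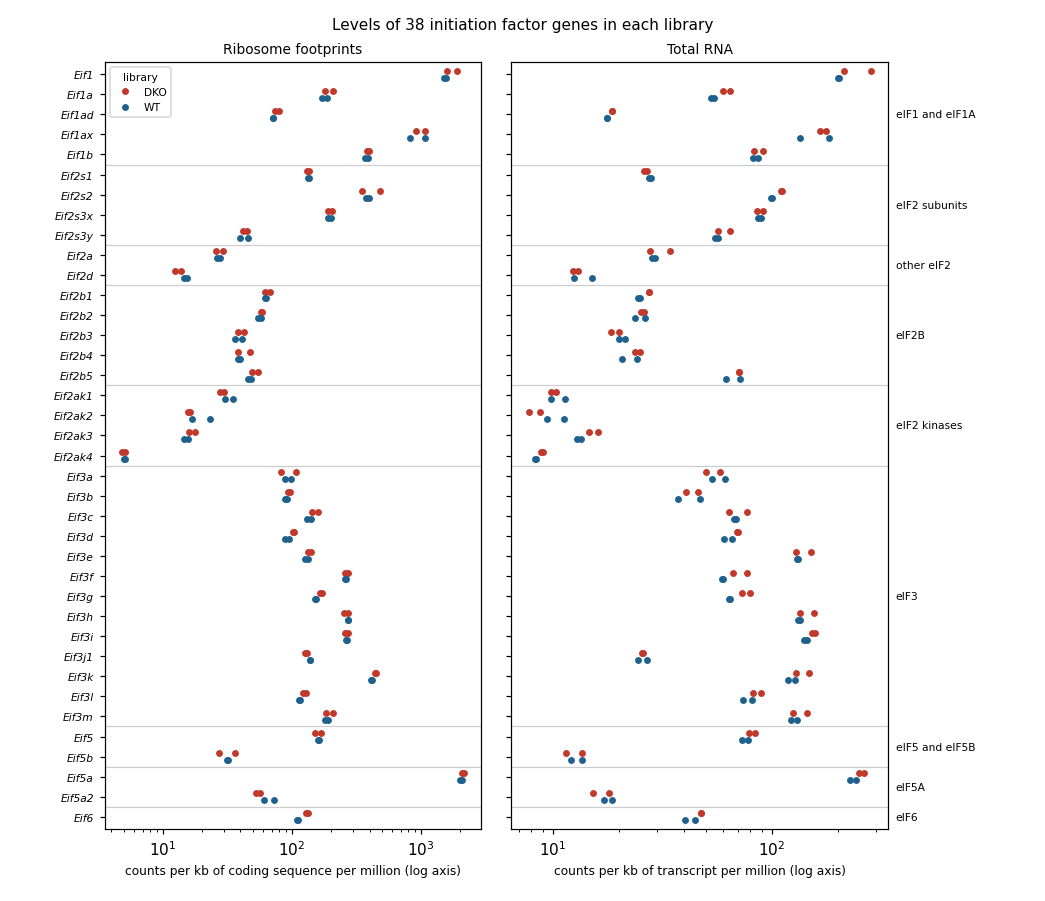
Footprint density (left, per kb of coding sequence, scaled to the library total, log axis) and RNA density (right, per kb of transcript, scaled likewise, log axis) of the 38 genes by role, with 1 point for each library and DKO above WT. Footprint densities run from 5.01 on average for Eif2ak4 to 2074 for Eif5a, and the genotypes lie close together in nearly every row.

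Shorter coding sequences carried denser footprints. Across the 38 members, footprint density and coding length had a Spearman rho of -0.66, and the same was -0.42 over 12762 tested genes with a coding sequence and -0.73 over the 13 eIF3 genes. RNA density followed coding length less, at -0.43 in the members. These correlations run across genes, which are not independent replicates and share the same libraries. Footprint density and RNA density of the members correlated at 0.88, against 0.89 over all tested genes.

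The next comparison asked how many footprints each mRNA carried relative to its RNA, averaged over genotypes. By count, 24 of 38 members were called higher in footprints than in RNA and 6 were called lower (edgeR quasi-likelihood test, adjusted p under 0.05), where 36.5% of all tested genes were called higher, 38.2% lower and 74.8% in either direction. At an unadjusted p under 0.05 there were 31 of 38 members, against 76.5% of all tested genes. In 24 members every footprint library lay above every RNA library and in 7 below, against 33.4% and 35.2% of all tested genes. The median log2 ratio was 0.63 in the members and -0.01 over all tested genes. The 24 were Eif1 and Eif1b, 3 of 4 eIF2 subunit genes, 4 of 5 eIF2B genes, the kinase gene Eif2ak1, 11 of 13 eIF3 genes, Eif5b, Eif5a and Eif6. The 6 were Eif1a, Eif1ax, Eif2s3y, Eif2b5, Eif2ak4 and Eif5a2. Without WT replicate 2 the counts were 24 and 6 and the members' median was 0.64. Scaling each assay on its own moved the median of all tested genes to -0.24 and the calls to 23 higher and 13 lower, where the higher call of Eif2s3x was lost (0.04 ± 0.07, adjusted p = 0.612, edgeR).

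The count ratio mixes in how much of the transcript is coding, since footprints lie on the coding sequence and RNA reads on the whole transcript, so it is set beside the ratio per length. Per length, 28 of 38 members lay above the all-gene median of 0.65, and the members' median was 1.13. Among the genes called higher by count, Eif3d, Eif3l and Eif3m lay below the all-gene median per length, at 0.554, 0.56 and 0.551. The coding sequence filled a median of 84.5% of the coding isoform with the most RNA in eIF3 genes. Over all tested genes this median was 50.8%. For 3 of the 6 genes called lower by count, the ratio per length was above the all-gene median: Eif5a2, Eif1ax and Eif1a. In Eif5a2 the coding sequence fills 9.1% of the coding isoform with the most RNA, and its ratio was -1.42 ± 0.08 (SE) by count and 1.81 ± 0.18 (SD, n = 4 cultures) per length. In Eif1ax the coding sequence fills 8.4%, and its ratio was -0.40 ± 0.13 (SE) by count and 2.56 ± 0.13 (SD, n = 4 cultures) per length. The Eif1ax call by count was lost without DKO footprint library 2 (-0.33), without WT RNA library 1 (-0.28) and without both libraries of DKO replicate 1 (-0.45) or of DKO replicate 2 (-0.34). The other 3, Eif2ak4, Eif2b5 and Eif2s3y, were low by length too, at -0.79, -0.475 and -0.44, with coding shares of 94.9%, 84.2% and 77.1%.

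**Figure D2:**
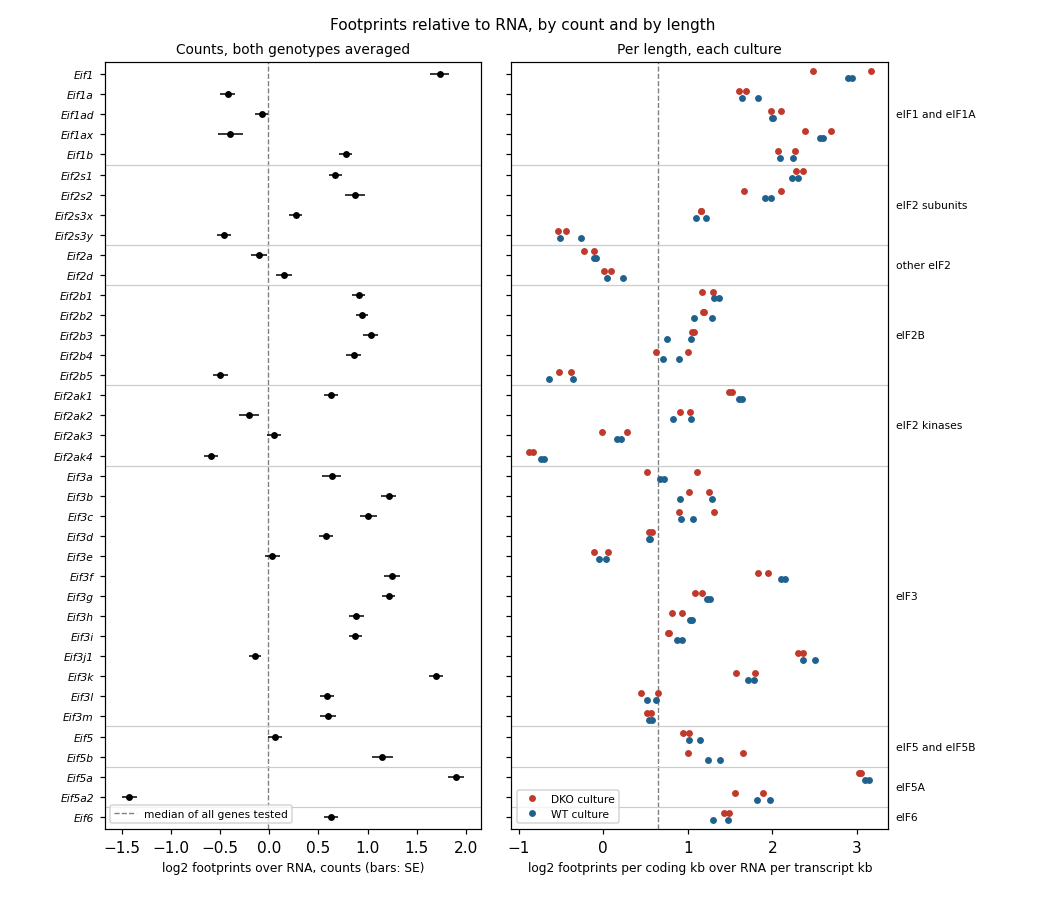
Log2 footprints over RNA of the 38 genes, by count with both genotypes averaged (left, bars are SE) and per length in each culture (right, DKO above WT), with dashed lines at the medians of all tested genes, -0.01 by count and 0.65 per length. Eif5a2 is at -1.42 on the left and averages 1.81 on the right, while Eif2ak4 and Eif2b5 are low in both panels.

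Per length, the 5 eIF1 and eIF1A genes held some of the densest footprints per RNA, with log2 ratios of 1.69 to 2.87. By count, 2 of the 5 were called higher and 2 lower, with a median of -0.075. The ratio per length fell with coding length, at a Spearman rho of -0.74 in the members and -0.55 over all tested genes with a ratio. The part of coding length in the ratios of this group was not tested. Eif1, whose product guards start codon selection, had a log2 count ratio of 1.73 ± 0.10 (adjusted p = 1.41e-08, edgeR quasi-likelihood test), and per length 2.47 and 3.17 in the DKO cultures and 2.89 and 2.95 in the WT cultures. It had this ratio with a weak start context. The 3 members with weak contexts had a median ratio per length of 2.16, against 1.13 for all members and 0.45 for all tested genes with weak contexts. Eif1 and Eif1b, among these 3, have coding sequences of 339 nt, against a median of 1204 nt in the members. The comparison was not matched for coding length. Eif1b, its paralog with 81.1% identical coding bases, had 4.28-fold lower footprint density and 2.64-fold lower RNA density than Eif1, or 2.29-fold and 1.46-fold lower with protein-coding isoforms alone. Eif1ax, the X-linked gene for eIF1A, exceeded its autosomal paralog Eif1a 5.23-fold in footprint density (4.79 to 5.78 over the 4 footprint libraries) and 2.86-fold in RNA density (2.47 to 3.48). With protein-coding isoforms alone these were 4.84-fold and 2.11-fold. Eif1ad, a gene named for its eIF1A domain, had a count ratio of -0.08 ± 0.07 that was not called.

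Among the eIF2 genes, the alpha subunit gene Eif2s1 had a footprint density of 134.6 and 131.5 in DKO and 136.3 and 132.2 in WT. Its RNA density was 26.2 and 27.1 in DKO and 27.7 and 28.1 in WT, the lowest of the 4 subunit genes. The per-length ratio of Eif2s1 was thus 2.29 ± 0.05 (SD, n = 4 cultures), the highest of the 4. Eif2s2, for the beta subunit, had the highest footprint density of the 4, 401 on average. The gamma subunit is made from Eif2s3x on the X chromosome and Eif2s3y on the Y chromosome, whose coding sequences are 86.3% identical and share 0.3% of their 31-base windows. Eif2s3x exceeded Eif2s3y 4.56-fold in footprint density but 1.51-fold in RNA density. Eif2s3y footprints were 44.7 and 42.0 in DKO and 39.7 and 45.6 in WT, and RNA was 64.8 and 56.8 in DKO and 56.8 and 55.0 in WT, per length. Retained-intron isoforms held part of the Eif2s3y counts, with Eif2s3y-205 taking 33.9% and 35.2% of its footprints in DKO and 32.0% and 45.1% in WT. With protein-coding isoforms alone, Eif2s3x exceeded Eif2s3y 8.83-fold in footprint density and 2.6-fold in RNA density. Of the proteins that place initiator tRNA outside the main pathway, Eif2a and Eif2d had per-length ratios of -0.14 ± 0.07 and 0.10 ± 0.10 (SD, n = 4 cultures each), both below the all-gene median.

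The 5 eIF2B subunits assemble in equal numbers, and the gene of 1 of them, Eif2b5, had a higher RNA density than the other 4. Mean footprint densities ran from 39.5 for Eif2b3 to 63.8 for Eif2b1, a 1.62-fold range, while RNA densities ran 3.44-fold, up to 68.8 for Eif2b5. Eif2b5 encodes the catalytic epsilon subunit, and its RNA density was 70.8 and 70.8 in DKO and 71.7 and 62.0 in WT, whereas the other 4 genes lay between 18.4 and 27.5 in every library. Its footprint density was 54.3 and 49.1 in DKO and 46.1 and 48.6 in WT, within the 36.1 to 67.8 of the others. Relative to the mean of the other 4 subunits, Eif2b5 stood at 2.9 in RNA and 0.982 in footprints, or at 3.88 and 1.18 with protein-coding isoforms alone. The range of RNA densities was then 14.9-fold, with Eif2b3 lowest. By count, Eif2b5 was called lower in footprints than in RNA (-0.50 ± 0.07, adjusted p = 6.72e-05) and the other 4 were called higher, at 0.86 to 1.03 (edgeR quasi-likelihood test).

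**Figure D3:**
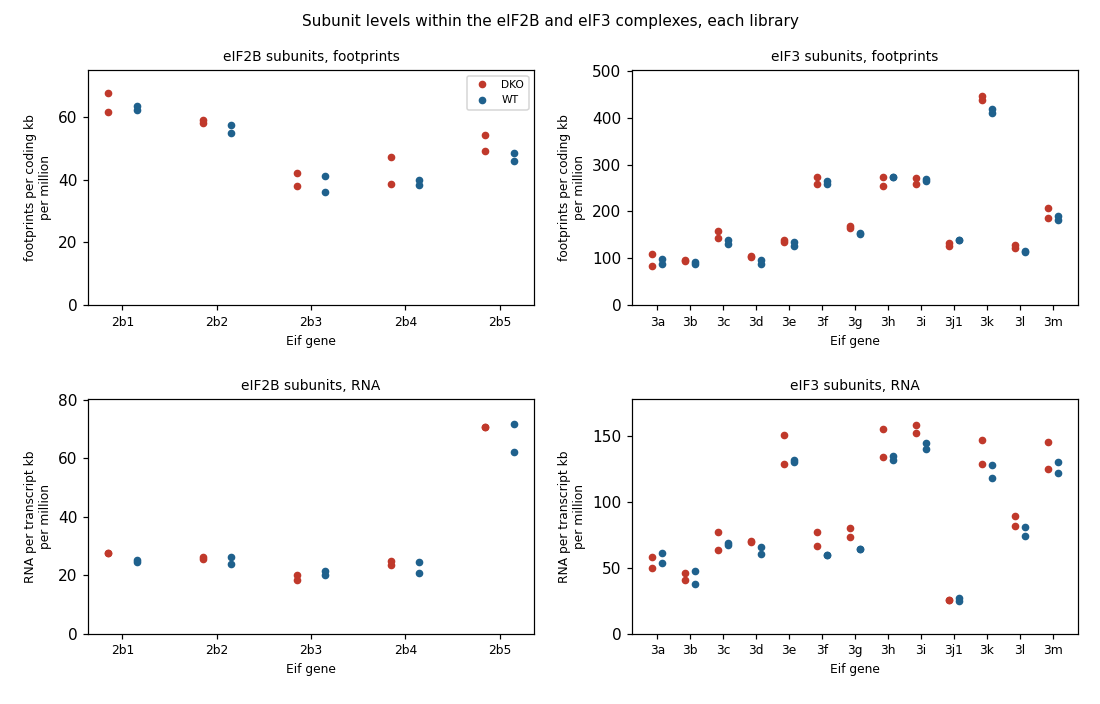
Footprint density (top, per kb of coding sequence) and RNA density (bottom, per kb of transcript), both scaled to the library total, of the eIF2B genes (left) and eIF3 genes (right) in each library, DKO left of WT. Eif2b5 is 2.9 times the mean of the other eIF2B subunits in RNA and 0.982 times in footprints, and Eif3k has the highest eIF3 footprint density, 428 on average.

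The 4 eIF2 kinases were among the members with the fewest footprints, with mean densities of 5.01 to 30.7. Eif2ak1 (HRI, which responds to haem and mitochondrial stress) had 27.7 and 29.9 in DKO and 30.6 and 34.8 in WT. Eif2ak2 (PKR, which responds to double-stranded RNA) had 15.8 and 16.4 in DKO and 16.7 and 23.04 in WT. Eif2ak3 (PERK, which responds to unfolded proteins in the endoplasmic reticulum) had 17.8 and 16.0 in DKO and 14.5 and 15.7 in WT. Eif2ak4 (GCN2, which senses uncharged tRNA) was lowest, as given above. Their RNA densities were closer together, 8.66 to 14.3, so that footprint densities varied 6.13-fold and RNA densities 1.65-fold. By count, Eif2ak1 was called higher in footprints than in RNA (0.63 ± 0.07, adjusted p = 5.85e-06), Eif2ak4 was called lower (-0.59 ± 0.07, adjusted p = 8.91e-06), and Eif2ak2 and Eif2ak3 were not called (edgeR quasi-likelihood test).

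eIF3 is the largest initiation factor, a scaffold on the small subunit with an octameric core of subunits a, c, e, f, h, k, l and m. Its 13 genes spanned a 4.63-fold range of footprint density, from 92.4 for Eif3b to 428 for Eif3k. The 8 core genes spanned 4.54-fold in footprints and 2.49-fold in RNA. Eif3k had 438.2 and 445.9 in DKO footprints and 417.8 and 409.4 in WT footprints, above every other eIF3 gene. Its log2 count ratio was 1.70 ± 0.07 (adjusted p = 2.48e-09) and that of Eif3g, an RNA-binding subunit outside the core, was 1.22 ± 0.06 (adjusted p = 9.92e-09, edgeR quasi-likelihood test for both). Eif3e and Eif3j1 were the eIF3 genes not called. Eif3j1 was called lower with protein-coding isoforms alone (-0.16, adjusted p = 0.0431, edgeR). It was also called lower with a mean count of 50 (-0.17) and with TMM in each assay (-0.37). Per length, the Eif3j1 ratio was 2.38 ± 0.085 (SD, n = 4 cultures), with a coding share of 14.5%. Eif3e had mean densities of 133.5 in footprints and 135.5 in RNA. Its per-length ratio of -0.02 ± 0.08 (SD, n = 4 cultures) was below the all-gene median of 0.65. Of the coding 31-base windows of Eif3j1, 99.7% also occur in its near-copy Eif3j2, so reads of these genes cannot be separated, and of the Eif3e windows 46.4% occur in 4 pseudogenes.

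Eif5a had the highest count ratio of all members, 1.90 ± 0.08 (adjusted p = 2.03e-09), and its paralog Eif5a2 the lowest, -1.42 ± 0.08 (adjusted p = 1.3e-08, edgeR quasi-likelihood test). Per length the pair lay 34.2-fold apart in footprint density and 14.3-fold apart in RNA density. Their coding sequences are 72.8% identical and share 0.0% of 31-base windows, and both have strong start contexts. Eif5, for the GTPase-activating protein of eIF2, had 169.6 and 152.0 in DKO footprints and 161.8 and 158.9 in WT footprints, per length. Its count ratio was 0.06 ± 0.07 and was not called, and its per-length ratio of 1.03 ± 0.08 (SD, n = 4 cultures) was above the all-gene median. The 5 upstream ATGs lie in Eif5-202, which held 63.1% to 69.8% of Eif5 RNA but 8.9% to 13.7% of its footprints. The other coding isoform, Eif5-201, took 86.3% to 91.1% of the footprints. Both isoforms have a coding sequence of 1287 nt, so the split of footprints between them is an estimate. It does not show which isoform was translated. Upstream ATGs were counted only in the coding isoform with the most RNA, not in Eif5-201. Over the members, the median per-length ratio was 1.09 with an upstream ATG and 1.15 without, against 0.50 and 0.81 over all tested genes. Eif6 had a count ratio of 0.63 ± 0.07 (adjusted p = 3.75e-06, edgeR quasi-likelihood test).

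For a few members the ratio depends on isoforms other than the coding isoform with the most RNA. The estimated counts place 88.6% and 86.4% of Eif5b footprints in DKO, and 87.4% and 86.0% in WT, on a retained-intron isoform, Eif5b-202. The same isoform took 17.1% and 15.9% of Eif5b RNA in DKO and 11.9% and 10.3% in WT. With protein-coding isoforms alone, the count ratio of Eif5b, the GTPase of subunit joining, was -1.51 ± 0.11 in place of 1.15 ± 0.11, so its direction depends on how reads were shared among isoforms. The ratio of Eif2a became -0.85 ± 0.11 and was then called lower, while a decay-targeted isoform held 46.6% and 46.1% of its footprints in DKO and 50.1% and 54.2% in WT. Eif3f moved to 0.60 ± 0.09 in place of 1.25 ± 0.08, and Eif1 to 1.16 ± 0.09 in place of 1.73 ± 0.10, both still called higher. The Eif5a isoform with the most footprints, Eif5a-211, had 82.2% to 88.4% of footprints and 0.0% of RNA in every library. Of the Eif1 coding windows, 72.2% occur in 3 pseudogenes, and of those of Eif5a 37.0% in 1.

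Between genotypes, no initiation factor passed the test in footprints. Of 38 members, 0 were called in either direction (edgeR quasi-likelihood test, adjusted p under 0.05), where 0.00775% of all tested genes were called, and DESeq2 and limma-voom also called 0 members. At an unadjusted p under 0.05 there were 2 of 38, against 5.62% of all tested genes. The log2 fold changes of DKO over WT ran from -0.28 for Eif2ak2 to 0.25 for Eif6, with a median of 0.061 against 0.003 over all genes. They were positive in 29 of 38 members and in 50.8% of all genes. Without both libraries of DKO replicate 1 the median was -0.009 in the members, 18 of 38 values were positive, and 17 of 38 lay above the median of all genes. Without WT replicate 2 the members' median was 0.017 and 22 of 38 values were positive. Leaving out WT replicate 1 instead gave a members' median of 0.14. The widest 95% limits of any member were -0.61 for Eif2ak2 and 0.49 for Eif1.

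Eif6, Eif2ak3 and Eif3d came closest to a higher call. Eif6 had 107.6 and 102.2 CPM in DKO footprints, against 89.7 and 86.5 CPM in WT footprints, and its log2 fold change was 0.25 ± 0.09 (SE, adjusted p = 0.836, edgeR quasi-likelihood test). Both DKO libraries lay above both WT libraries, and the value was 0.22 without WT replicate 2. Eif2ak3 had 65.1 and 57.9 CPM in DKO footprints, against 53.8 and 54.9 CPM in WT footprints (0.18 ± 0.10, adjusted p = 0.849, edgeR). Eif3d, a subunit that can itself bind the cap of some mRNAs, had 187.1 and 183.0 CPM in DKO footprints, against 174.8 and 153.0 CPM in WT footprints (0.17 ± 0.10, adjusted p = 0.852, edgeR). The groups did not overlap in any of these 3, but the Eif3d value was 0.08 without WT replicate 2.

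On the lower side stood Eif5a2, Eif2ak2 and Eif2ak1. Eif5a2 had 26.6 and 28.1 CPM in DKO footprints, against 30.9 and 35.0 CPM in WT footprints (-0.26 ± 0.11, adjusted p = 0.849, edgeR). Eif2ak2 had 26.5 and 27.5 CPM in DKO footprints, against 28.7 and 37.4 CPM in WT footprints (-0.28 ± 0.15, adjusted p = 0.849, edgeR). Eif2ak1 had 56.2 and 60.2 CPM in DKO footprints, against 63.1 and 67.7 CPM in WT footprints (-0.17 ± 0.10, adjusted p = 0.853, edgeR). Both DKO libraries lay below both WT libraries in each of the 3 genes. Without WT replicate 2 the values were -0.17 for Eif5a2, -0.09 for Eif2ak2 and -0.12 for Eif2ak1. With libraries or cultures left out, the footprint value of Eif2ak2 ran from -0.46 to -0.09. The fibroblast and mural markers, 5 of 5 measured, summed to 506.8 and 162.6 CPM in DKO footprints. In WT footprints they summed to 295.7 and 792.2 CPM. Both they and Eif2ak2 were highest in WT replicate 2, but DKO replicate 1 had the next highest sum and the lowest Eif2ak2. The astrocyte, oligodendrocyte lineage, progenitor, proliferating and pluripotent sums were also highest in WT replicate 2 footprints. The part of these markers in the result was not tested. In whole cultures, fewer cells of a type and less RNA per cell cannot be told apart.

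Counted over all members, the DKO footprints lay wholly above WT in 12 and wholly below in 5, where 16.3% of all tested genes lay above and 16.2% below. All 5 eIF1 and eIF1A genes, all 5 eIF2B genes and 11 of 13 eIF3 genes had positive log2 fold changes, which ran from 0.05 to 0.20, from 0.06 to 0.14 and, over all eIF3 genes, from -0.09 to 0.17. None of these genes was called. Without DKO replicate 1 the positive values numbered 4 of 5 eIF1 and eIF1A genes, 3 of 5 eIF2B genes and 8 of 13 eIF3 genes, and without WT replicate 2 they numbered 4 of 5, 4 of 5 and 9 of 13, with Eif1ax at -0.15.

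**Figure D4:**
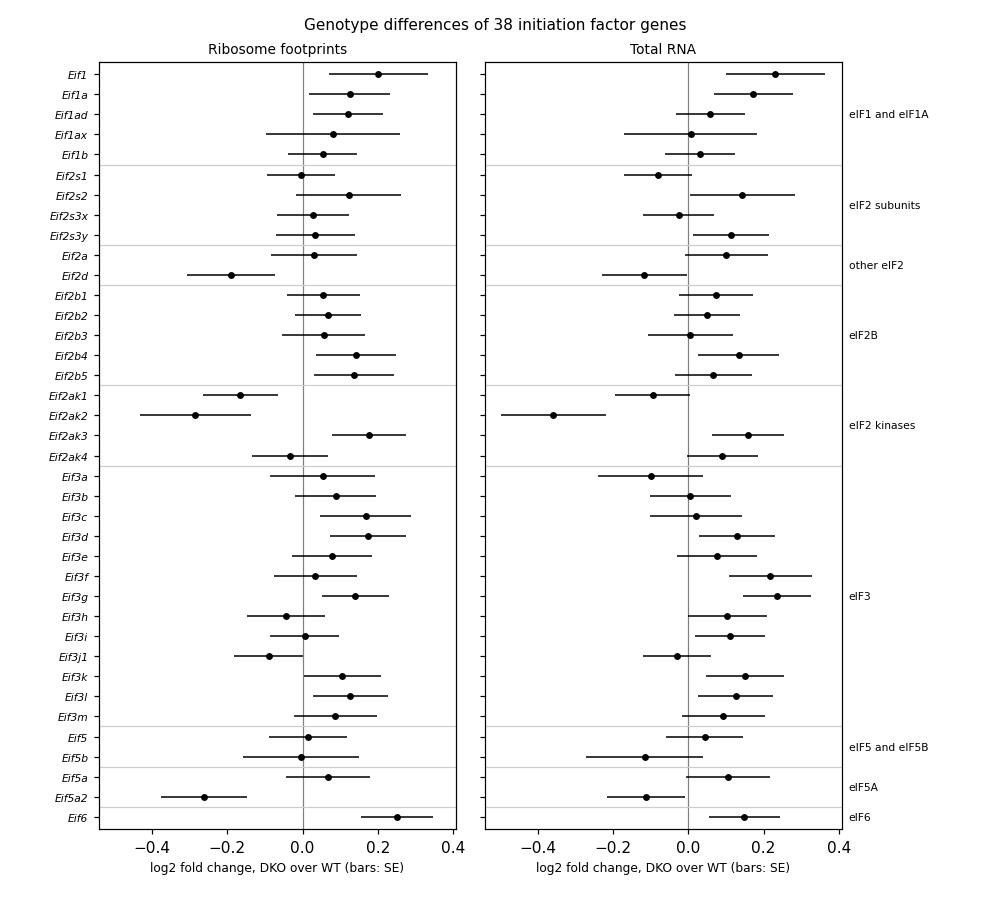
Log2 fold change of DKO over WT with its SE for the 38 genes by role, in footprints (left) and total RNA (right). Values lie between -0.36 and 0.25, and none passed the threshold.

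In total RNA, 0 of 38 members were called higher or lower (edgeR quasi-likelihood test), where 0.0155% of all tested genes were called. DESeq2 and limma-voom called 0 members as well. At an unadjusted p under 0.05 there were 2 of 38, against 5.57% of all tested genes. The median log2 fold change of DKO over WT was 0.075 in the members and -0.001 over all genes. In the members it was 0.046 without WT replicate 2, 0.039 without DKO replicate 1 and 0.136 without WT replicate 1. The log2 fold change was positive in 29 of 38 members and in 49.6% of all genes.

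Eif3g had the smallest p in RNA, with 80.6 and 74.6 CPM in DKO, against 67.0 and 64.9 CPM in WT (0.24 ± 0.09, adjusted p = 0.851, edgeR), and its groups did not overlap. The next higher members were Eif3f, with 154.5 and 126.1 CPM in DKO against 120.2 and 121.5 CPM in WT (0.22 ± 0.11), and Eif1, with 218.5 and 173.5 CPM in DKO against 166.9 and 167.4 CPM in WT (0.23 ± 0.13). In both, DKO replicate 1 was well above the rest and DKO replicate 2 was near the WT values. On the lower side, Eif2ak2 had 28.3 and 32.8 CPM in DKO RNA, against 35.2 and 42.5 CPM in WT RNA (-0.36 ± 0.14, adjusted p = 0.851, edgeR). It was -0.21 without WT replicate 2, and it ran from -0.48 to -0.21 with libraries or cultures left out. In WT replicate 2 the fibroblast and mural markers summed to 448.4 CPM in RNA, against 81.5 to 215.2 CPM in the other 3. The astrocyte, oligodendrocyte lineage, progenitor, proliferating and pluripotent sums in RNA were also highest in that culture. Eif5a2 and Eif2d had RNA values of -0.11 ± 0.10 and -0.12 ± 0.11, with overlapping groups.

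The DKO RNA values lay wholly above WT in 13 members and wholly below in 2, where 19.6% of all tested genes lay above and 18.9% below. Eif1, Eif1ad, Eif2ak3, Eif3d, Eif3g and Eif6 lay above in both assays, 6 of 38 against 7.05% of all tested genes. Eif2ak2 was the 1 member below in both, where 6.69% of all tested genes were.

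**Figure D5:**
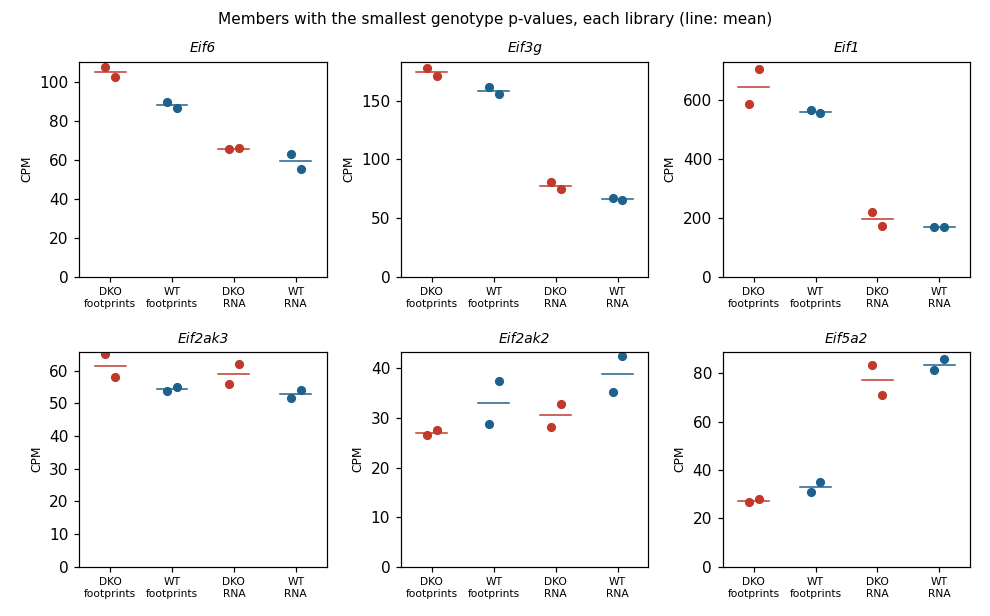
CPM of 6 members in each library, with DKO left of WT within each assay and a line at the mean of the 2 libraries. Eif6 footprints are 107.6 and 102.2 CPM in DKO and 89.7 and 86.5 CPM in WT, and Eif2ak2 is highest in WT replicate 2, at 37.4 CPM in footprints and 42.5 CPM in RNA.

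Translational efficiency, the genotype difference in footprints relative to RNA, was called in 0 of 38 members and in 0 of all tested genes (edgeR quasi-likelihood test). DESeq2 called 1 gene, which was not a member, and at an unadjusted p under 0.05 there were 0 members, against 0.853% of all genes. The members' median was -0.003, against 0.011 over all genes, and 19 of 38 values were positive, against 53.1% of all genes. On the positive side the smallest p belonged to Eif3c at 0.15 ± 0.17, Eif3a at 0.15 ± 0.20 and Eif6 at 0.10 ± 0.13. The lowest values were -0.18 ± 0.16 for Eif3f, -0.15 ± 0.15 for Eif5a2 and -0.15 ± 0.15 for Eif3h. The 95% limits of single members reached from -0.53 for Eif3f to 0.63 for Eif1ax. In the 4 cultures, the efficiency of DKO lay wholly above WT in 1 member and wholly below in 7, where 13.8% of all tested genes lay above and 13.2% below. The 7 were Eif2ak1, Eif2ak4, Eif3f, Eif3g, Eif3h, Eif3i and Eif5a.

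Genes that act with or on the initiation factors were read from a list of 37, of which 35 were tested, among them phosphatase subunits and targets of the eIF2 pathway, the enzymes that modify eIF5A and the factors that release eIF6. In RNA 1 was called higher and 0 lower, where 0.0155% of all tested genes were called. In footprints 0 were called, where 0.00775% of all tested genes were, and in efficiency 0 were called (edgeR quasi-likelihood test). The called gene was Ddit3, a transcription factor gene induced downstream of eIF2 phosphorylation, with 70.5 and 60.9 CPM in DKO RNA, against 37.2 and 38.1 CPM in WT RNA. Its log2 fold change was 0.81 ± 0.10 (adjusted p = 0.0291, edgeR quasi-likelihood test). Its footprints were 53.4 and 48.9 CPM in DKO, against 29.5 and 29.6 CPM in WT (0.79 ± 0.10, adjusted p = 0.0572, edgeR). The RNA call did not survive leaving out the libraries of WT replicate 2 or of DKO replicate 1, nor either WT RNA library or either DKO footprint library alone, when 0 genes were called higher in RNA. Ppp1r15a, for the stress-induced subunit of the phosphatase that restores eIF2, had 55.6 and 44.8 CPM in DKO RNA, against 34.3 and 31.01 CPM in WT RNA (0.63 ± 0.14, adjusted p = 0.564, edgeR). The groups did not overlap in either gene. In efficiency the smallest p belonged to Larp1, a binding protein of mRNAs for the translation machinery, at -0.23 ± 0.19, and Prkra, an activator of Eif2ak2, at 0.18 ± 0.15 (adjusted p = 1 for both, edgeR). Relative to RNA, 19 of the 35 were called higher in footprints and 11 lower, where 36.5% of all tested genes were called higher and 38.2% lower, with the smallest p for Gsk3a at 1.41 ± 0.07 (adjusted p = 3.71e-09), a kinase that phosphorylates eIF2B, and the chaperone Hsp90ab1 at 1.66 ± 0.09 (adjusted p = 9.3e-09, edgeR for both).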

How the data were processed

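Ribosome footprints (ARTseq kit) and total RNA were sequenced from 4 cultures. The submitters' processing notes name kallisto, Bowtie, Trimmomatic and FastQC. Their versions and settings, the genome build and the use of strand were not given in the sources used. The authors deposited estimated counts per transcript, whole numbers throughout, which needed no rounding. Of 60528 transcripts, 60444 (99.86%) matched GENCODE M21 and were summed to 18301 genes; the rest held 0.0765% to 0.151% of a library. kallisto shares reads among isoforms and similar genes, so counts of near-copies are uncertain.

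All 8 libraries, in 4 groups, entered 1 quasi-likelihood fit in R 4.3.3 (edgeR 4.0.16; limma 3.58.1 for voom) using TMM scaling, filterByExpr (minimum count 10) passed in both assays and 4 residual degrees of freedom, and p-values were adjusted by Benjamini-Hochberg over 12898 genes. Libraries of 1 culture were counted as independent. The fit was tested on simulated data. Named members are, for each comparison, the 3 per direction with the smallest p, with the paralog pairs, kinases, Eif2s1, Eif5 and Eif6; partners are the 2 with the smallest p. The members, lists and rules were chosen with earlier results of these data known. Start contexts, leaders and identities come from GENCODE M21 transcripts. Cultures were matched across assays by the culture codes in the labels; the code of DKO replicate 2 is spelled differently in the 2 assays, so that match is uncertain. Replicate differences correlated between assays across genes at 0.211 in DKO and 0.605 in WT. Same-numbered DKO and WT cultures share only the number. Alternatives were DESeq2 1.42.0, limma-voom, RLE scaling, TMM per assay, a mean count of 50 or no filter, 1 assay alone, replicate blocks, protein-coding isoforms only, and leaving out libraries and cultures; a crossed block and, for densities, protein-coding isoforms only were added after seeing the data.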

Additional observations from a re-analysis of the deposited data

How the results depend on the processing

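No member was called between genotypes in footprints, RNA or efficiency under any alternative run, leaving out libraries or cultures included, while the number of other genes called moved. Footprint genes called higher were 2 with no filter, 2 with a mean count of 50 and 4 with DESeq2, and genes called lower were 1 with DESeq2 and 2 with the crossed replicate block. RNA genes called higher were 6 with DESeq2, 1 with RNA libraries alone and 0 with the replicate block, and genes called lower were 7 with DESeq2, 1 with limma-voom, 4 with the crossed block and 1 with protein-coding isoforms. Efficiency genes called higher were 1 with DESeq2, and 1 was called higher and 1 lower with protein-coding isoforms. The members' median RNA value was 0.087 with RLE scaling, 0.087 with DESeq2 and 0.096 with protein-coding isoforms, and their median efficiency was -0.045 with the last. Footprints relative to RNA had 13 members lower and a median of 0.397 with TMM in each assay, and medians of 0.678 with no filter and 0.598 with a mean count of 50. Signs turned for Eif2ak3 (-0.18), Eif2d (-0.080), Eif3e (-0.20) and Eif5 (-0.17) with TMM in each assay, a scaling that shifts all genes, and for Eif2ak3 (-0.010) and Eif5b (-1.51) with protein-coding isoforms. Protein-coding isoforms also turned the efficiency of Eif1 (0.046), Eif1b (-0.013) and Eif2ak3 (-0.059). The cause of these changes was not tested.

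With libraries or cultures left out, genes called higher numbered 0 to 196 in footprints, 0 to 126 in RNA and 0 to 1 in efficiency, and genes called lower 0 to 324, 0 to 347 and 0 to 1. The highest counts, 196, 324, 126 and 347, came without both libraries of WT replicate 1. Members' medians ran from -0.010 to 0.140 in footprints, from 0.039 to 0.172 in RNA and from -0.084 to 0.045 in efficiency and from 0.619 to 0.650 for footprints relative to RNA, and members lower in footprints than RNA numbered 5 to 7. In footprints, values of both signs were met for Eif1ax (-0.15 to 0.37), Eif2ak4 (-0.072 to 0.017), Eif2s1 (-0.069 to 0.079), Eif2s3x (-0.018 to 0.082), Eif2s3y (-0.016 to 0.090), Eif5 (-0.068 to 0.10) and Eif5a (-0.0007 to 0.15). In RNA they were met for Eif1ax (-0.18 to 0.25), Eif1b (-0.032 to 0.12), Eif2ak1 (-0.18 to 0.012), Eif2s3x (-0.046 to 0.036), Eif2s3y (-0.0045 to 0.25), Eif3j1 (-0.082 to 0.032), Eif5 (-0.014 to 0.11) and Eif5a2 (-0.23 to 0.029). In efficiency they were met for Eif1 (-0.32 to 0.28), Eif1a (-0.17 to 0.094), Eif1ax (-0.18 to 0.35), Eif1b (-0.079 to 0.12), Eif2ak2 (-0.10 to 0.27), Eif2ak3 (-0.14 to 0.18), Eif2s3x (-0.016 to 0.12), Eif2s3y (-0.23 to 0.019), Eif3a (-0.16 to 0.46), Eif3c (-0.057 to 0.36), Eif3j1 (-0.16 to 0.054), Eif5 (-0.15 to 0.10), Eif5a (-0.15 to 0.037), Eif5a2 (-0.30 to 0.013) and Eif6 (-0.041 to 0.18). In footprints relative to RNA they were met for Eif2ak3 (-0.018 to 0.13) and Eif3e (-0.016 to 0.10). The replicate number as a block called 1 footprint gene and 0 RNA genes, and the culture as a block called 0 genes in efficiency and changed no other count of calls by over 1.5 times. Same-numbered DKO and WT cultures correlated across genes at -0.132 in footprints and -0.128 in RNA. With 2 libraries a group, 95% limits of single members reached 0.63 log2 in efficiency.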
